A study of Mus musculus with 4 samples.

Results

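Conventional CD4 T cells were taken from the CD45-positive libraries of MB49 tumours as cells with Cd4 and Cd3 transcripts and without transcripts of the regulatory T cell factors Foxp3 and Ikzf2 or of Cd8. The rule required at least 500 unique molecular identifiers (UMIs), at least 250 genes and at most 25% mitochondrial UMIs per cell. It further required at least 1 UMI of Cd4, at least 1 of Cd3e, Cd3d and Cd3g together, none of Foxp3, Ikzf2, Cd8a or Cd8b1, and less than 0.3% of UMIs from the complement genes C1qa, C1qb and C1qc. It left 289 cells, 154 from the male library and 135 from the female library, of 9974 kept CD45-positive cells and 19375 kept cells in all. None of the cells of either CD45-negative library met the rule. Members were therefore chosen by measured transcripts, and the levels of those genes are not results.

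MB49, a bladder carcinoma cell line of male mouse origin, was grown as tumours in male and female mice. After digestion, live cells were sorted on CD45, the pan-leukocyte protein, and loaded into BD Rhapsody microwells, 1 library for each sex and gate. The groups were male CD45-positive, female CD45-positive, male CD45-negative and female CD45-negative cells; the labels name no treatment or genotype and give neither the age nor the number of mice behind a library. With 1 library per sex there was no test between the sexes, and intervals cover counting error only. The sex of the host and the library that holds it cannot be told apart.

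CD4 T cells help other immune cells through surface ligands such as CD40 ligand and through cytokines. Activated conventional cells take on programmes named after their cytokines: T helper 1 cells make interferon gamma under T-bet (Tbx21), and T helper 2 cells make interleukins 4, 5 and 13 under GATA3. Regulatory T cells, marked by Foxp3, restrain such responses. In tumours the balance of these states among CD4 T cells shapes the help that CD8 T cells and macrophages receive.

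The CD45-positive libraries held 5379 kept male and 4595 kept female cells, from 5771 and 5169 barcodes. Members were shallow, with a median of 2100.5 UMIs per male member and 3023 UMIs per female member, and their summed counts came to 632493 and 585231 UMIs. The deepest male member held 39917 UMIs, or 6.31% of the male sum, and the deepest female one 23690 UMIs, or 4.05% of the female sum. By comparison, C1q-high phagocytes had medians of 10121.5 and 7891 UMIs. Cell names were numbered anew in each library, so shared barcodes could not be counted, and 0 cells had identical counts in both libraries. Xist had 0 UMIs in male members and 116 in female members, and Ddx3y had 109 in male members and 0 in female members, in keeping with the labels.

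The members carried T cell genes that the rule did not use. Icos, a costimulatory receptor of activated T cells, had 1513 CPM (UMIs of the gene per 1000000 UMIs summed over the members of a library; interval 1419 to 1612) in male members and 1895 CPM (1785 to 2010) in female members. It was seen in 87.7% of male and 92.6% of female members, against 6.02% and 10.3% of the deeper phagocytes. Regulatory cells had 1973 and 2081 CPM of Icos, and the difference between the classes did not pass (adjusted p = 0.633). Cd40lg, the ligand of CD40, was seen in 26.0% of male and 16.3% of female members, against 0.0987% and 0.148% of phagocytes. Its level was 82.2 CPM in male and 63.2 CPM in female members. In regulatory cells it was 1.22 and 29.9 CPM, and in CD8 T cells 3.07 CPM in the male library, with no UMI in the female one. Cd40lg was thus highest in the conventional cells of each library, but its fitted contrasts did not pass (edgeR quasi-likelihood, adjusted p = 0.377 against regulatory and 0.0921 against CD8 cells).

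Markers of other cell types differed between the libraries. B cell markers (4 genes) had 0 UMIs in male and 1 in female members, NK markers (4 genes) 0 and 8, and gamma-delta T cell markers (3 genes in the files) 1 and 17; Ncr1 and Cd79a were at 0 in both. Macrophage markers, 8 genes of which all were detected, summed to 2128 CPM in male and 3976 CPM in female members. The sum holds the 3 C1q genes, which the rule capped in members and which define the phagocytes. It was therefore not set against phagocytes. Over the 5 markers outside the rule the median log2 male over female was -1.38. Dendritic cell markers (6 genes) ran the other way, at 237 CPM in male and 75.2 CPM in female members, against 50.2 and 31.2 CPM in phagocytes. Of their male UMIs 38% lay in 1 cell. CD8 cells had 240 and 66.3 CPM of them, and regulatory cells 145 and 153 CPM. Neutrophil markers (4 genes) had 82.2 CPM in male and 54.7 CPM in female members. MHC class II genes reached at least 1% of UMIs in 14 male and 19 female members. Fibroblast markers summed to 601 CPM in male and 18.8 CPM in female members, and tumour epithelial markers to 368 and 11.96 CPM; of the fibroblast UMIs in the male library 40.5% lay in 1 cell. Regulatory cells had the reverse order, their fibroblast markers summing to 13.4 CPM for male and 558 CPM for female cells and their tumour markers to 9.78 and 156 CPM. CD8 cells had the order of the members, at 211 and 11.7 CPM of fibroblast and 84.4 and 5.85 CPM of tumour markers. At least 5 such UMIs were held by 4 male and 0 female members and by 3 male and 0 female CD8 cells. Among regulatory cells these were 0 male cells and 1 female cell. The order of the libraries in these transcripts thus rested on few cells in each class. The part of other-lineage transcripts in the comparisons of the sexes was read only from 1 alternative. It left out cells with at least 1% MHC class II UMIs or at least 5 fibroblast and tumour UMIs. Below, these are the cells that carried transcripts of other lineages, and 136 male and 116 female members remained without them. Macrophage markers were not part of that limit, and were seen in 143 male and 134 female members before it. Members that remained can thus still hold such transcripts.

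Conventional cells made up a like share of leukocytes in both libraries, but a smaller share of the CD4 T cells in the male one. They were 2.86% (95% Clopper-Pearson interval 2.43 to 3.34) of kept male CD45-positive cells and 2.94% (2.47 to 3.47) of the female ones, a male:female ratio of 0.974 (0.768 to 1.24). Among conventional and regulatory CD4 T cells together they were 154 of 331 in the male library, or 46.5% (41.1 to 52.1). In the female library they were 135 of 191, or 70.7% (63.7 to 77.0). The regulatory cells, defined by at least 1 UMI of Foxp3 or Ikzf2, numbered 177 and 56. Of these, 60 male and 26 female cells had Ikzf2 without Foxp3. With regulatory cells by Foxp3 alone, conventional cells were 56.8% of male and 81.8% of female CD4 T cells. With at least 2000 UMIs per cell the male:female ratio of the share of leukocytes was 0.698 (0.520 to 0.935), and with members limited to cells without a C1q UMI it was 4.84, on 51 male and 9 female cells.

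A Foxp3 or Ikzf2 transcript can go unseen in a shallow cell, so the split was also read by depth. Male conventional cells were 72.7% of CD4 T cells at 500 to under 1500 UMIs and 61.3% at 1500 to under 2500 UMIs. From 2500 to under 5000 UMIs they were 29.9%, and at 5000 UMIs or more 34.7%. Female conventional cells were 69.2%, 69.8%, 76.3% and 63.3% in the same bands. The intervals of the male and female shares overlapped below 2500 UMIs and lay apart above it. How many members are regulatory cells with an unseen factor was not tested.

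**Figure D1:**
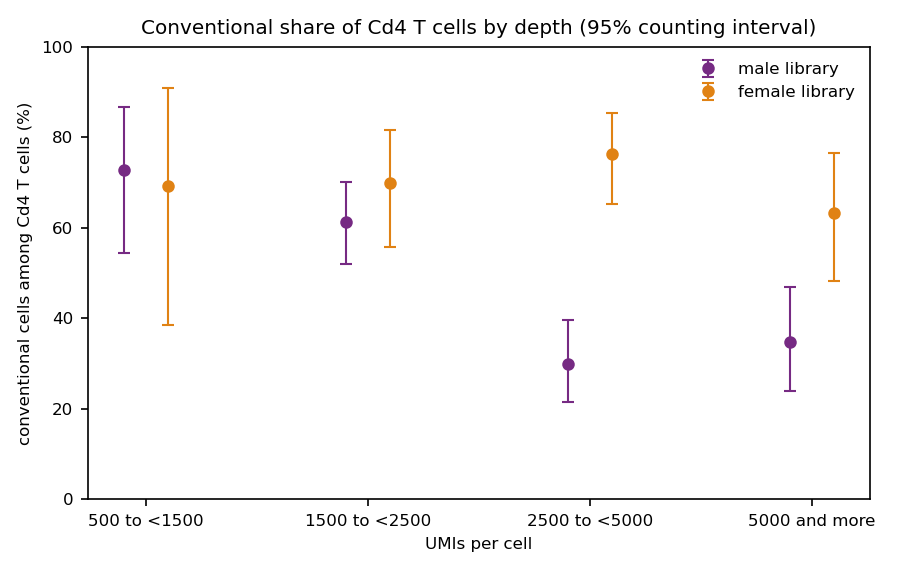
Share of conventional cells (%, y axis) among conventional and regulatory CD4 T cells by UMIs per cell (x axis), male and female library, points with 95% Clopper-Pearson intervals. The male share is 72.7% in the shallowest band and 29.9% from 2500 to under 5000 UMIs, while the female share stays between 63.3% and 76.3%.

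Cells near the limits of the rule were described without a test. A single Cd4 UMI carried 51 male and 33 female members, and a single Cd3 UMI 21 and 10. Just outside, cells with 1 UMI of Foxp3 or Ikzf2 numbered 23 and 20. Klrg1, a receptor of terminally differentiated lymphocytes that is frequent on tumour regulatory cells, had 23.7 and 11.96 CPM in male and female members. In the cells with 1 such UMI it had 31.9 and 111 CPM, and in those with 2 or more 534 and 511 CPM. In Klrg1 the members thus lay far below the cells with 2 or more UMIs, and the male cells just outside lay close to the members. In Ctla4 they did not, with 277 CPM in male members and 1084 CPM in the male cells with 1 such UMI. Izumo1r had 14.2 and 159 CPM and Gzmb 122 and 494 CPM. Tnfsf8, at 275 and 239 CPM, and Nkg7, at 405 and 462 CPM, lay close again. In the female library Ctla4 had 492 CPM in members and 349 CPM in such cells, and Izumo1r 27.3 and 76.6 CPM. The order thus varied by gene and library.

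Beside CD8 T cells, the members were set apart by type 2 genes. Of 9 tested genes of the Th2 list, 7 were higher in conventional than in CD8 T cells and none was lower (edgeR quasi-likelihood on class sums with the library as block, adjusted p at most 0.05), beside 0.663% of all 7994 genes tested being called higher. The genes not called were Ccr4 and Il4ra, and Ptgdr2 had no UMI in members. The median log2 difference of the list was 4.13, beside -0.0025 over all genes. Of the same 9 genes, none was called in either direction against regulatory cells (median 0.07). Over all genes only 0.0876% were called higher and 0.125% lower in that contrast. The type 2 cytokine genes Il4, Il5 and Il13 lie together on chromosome 11 (mm10), at 53602982-53618669, 53720794-53725106 and 53631324-53634702.

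Il13, which drives mucus, eosinophil and alternative macrophage responses, had 144 CPM in male and 407 CPM in female members, against 2.44 and 169 CPM in regulatory cells. CD8 T cells had 0 CPM in the male library and 1.95 CPM in the female one. It was seen in 11 male and 30 female members, 7.14% (3.62 to 12.4) and 22.2% (15.5 to 30.2), against 0.197% and 1.09% of phagocytes. The level was higher in conventional than in CD8 cells in each library, and the fitted log2 difference was 8.44 ± 1.19 (SE; adjusted p = 0.0242). Il5, the eosinophil growth factor, had 101 CPM in male and 229 CPM in female members, from 6 and 8 cells. CD8 cells held 0 and 1.95 CPM, and the log2 difference was 7.61 ± 1.02 (adjusted p = 0.0196). Il4, the cytokine that induces and maintains T helper 2 cells, had 19.0 CPM in male and 66.6 CPM in female members, with no UMI in CD8 cells of either library; the conventional level was at least 8.24-fold and at least 11.4-fold higher, taking 3 counts per library as the limit of a count of 0. The adjusted p of Il13 was 0.056 with at least 2000 UMIs per cell, and that of Il5 was 0.051 with DESeq2. These 3 genes were thus carried by few cells, and 1 cell held 27.5% of Il13, 32.8% of Il5 and 33.3% of Il4 UMIs in the male library, against 28.2%, 39.6% and 43.6% in the female one.

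The upstream sequences of the 3 cytokine genes are shown because the genes are neighbours and were high in the same class. They are RefSeq promoter windows of build GRCm38.p6, 250 bases before the start, read 5′ to 3′ on the gene's strand. Capitals mark GATAA, the core letters that GATA factors bind (also searched as TTATC), and TTC and GAA with any 4 bases between them, the letters preferred by STAT6, the factor downstream of the interleukin 4 receptor. The windows are chr11:53618666-53618915 on the minus strand for Il4, chr11:53720544-53720793 on the plus strand for Il5 and chr11:53634703-53634952 on the minus strand for Il13.
Il4: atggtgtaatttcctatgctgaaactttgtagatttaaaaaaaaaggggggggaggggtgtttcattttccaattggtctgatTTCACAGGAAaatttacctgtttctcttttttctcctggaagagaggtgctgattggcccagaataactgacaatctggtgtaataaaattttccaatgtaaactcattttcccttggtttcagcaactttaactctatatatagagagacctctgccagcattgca
Il5: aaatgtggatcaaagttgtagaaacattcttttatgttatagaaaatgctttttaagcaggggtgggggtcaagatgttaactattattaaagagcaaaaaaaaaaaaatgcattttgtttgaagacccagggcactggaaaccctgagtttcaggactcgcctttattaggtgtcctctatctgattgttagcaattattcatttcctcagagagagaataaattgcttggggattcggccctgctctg
Il13: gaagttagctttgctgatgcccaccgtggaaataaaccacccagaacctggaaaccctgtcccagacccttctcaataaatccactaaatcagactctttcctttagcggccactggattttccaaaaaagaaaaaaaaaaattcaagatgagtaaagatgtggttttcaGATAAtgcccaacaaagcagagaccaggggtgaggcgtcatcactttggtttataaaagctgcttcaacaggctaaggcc
Among the windows shown, GATAA was found in that of Il13 alone, 80 bases before its start, and the STAT6 letters in that of Il4 alone, while that of Il5 held neither. RefSeq lists another Il4 window, chr11:53617339-53617588 on the minus strand, which held neither and is not shown. Of 32851 windows of the same length, 22.6% held GATAA and 5.85% held the STAT6 letters on either strand; the patterns do not overlap in these windows.

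Among the receptors and factors of the programme, Il1rl1, which encodes the interleukin 33 receptor ST2, had 228 CPM in male and 566 CPM in female members. Regulatory cells had 407 and 667 CPM and CD8 cells 6.14 and 9.76 CPM. Conventional cells stood far above CD8 cells in both libraries (log2 difference 5.53 ± 0.29, adjusted p = 0.000281), and their difference from regulatory cells did not pass (-0.52 ± 0.20, adjusted p = 0.453). Gata3, the master factor of the lineage, had 277 CPM in male and 420 CPM in female members, against 66.7 and 48.8 CPM in CD8 cells (log2 difference 2.57 ± 0.29, adjusted p = 0.00969). Maf, which drives Il4 transcription, and Ccr8, the receptor for the chemokine CCL1, were higher too, by 2.74 ± 0.23 and 3.62 ± 0.35. Regulatory cells had 384 and 332 CPM of Gata3 and 188 and 113 CPM of Ccr8, so neither gene set the members apart from them (adjusted p = 0.997 and 0.279).

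Other helper programmes were read from the Th1, Th17 and follicular lists. Interferon gamma, encoded by Ifng, was seen in 17 male and 16 female members, 11.04% and 11.9%, at 150 and 101 CPM, so in the male library about as many members held it as held Il4, Il5 or Il13 (15 cells). In the male library 53.7% of its UMIs lay in 1 cell. Of 13 tested Th1 genes, 1 was lower than in CD8 cells and none was higher, beside 0.388% and 0.663% of all genes. It was Ly6c2, a surface protein of memory CD8 T cells and monocytes. Ly6c2 had 56.9 CPM in male and 138 CPM in female members, against 1462 and 2154 CPM in CD8 cells. Tbx21 had 30.0 and 49.6 CPM in members and 46.0 and 83.9 CPM in CD8 cells (adjusted p = 0.433). Il17a and Il17f of the Th17 list had no UMI in members of either library, which allows up to 4.74 CPM in male and 5.13 CPM in female members (3 counts). Cxcr5, which guides follicular helper cells, also had none, and Il21 had 6 UMIs in 1 male cell and none in female members. Of 8 tested genes of the follicular list, 2 were higher than in CD8 cells, Tnfsf8 and Cd200, beside 0.663% of all genes. Against regulatory cells 1 of them, Izumo1r, was lower, beside 0.125% of all genes.

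Few members held both a type 2 cytokine and interferon gamma. Any of Il4, Il5 and Il13 was seen in 15 male and 35 female members, or 9.74% (5.55 to 15.6) and 25.9% (18.8 to 34.2). Ifng was seen together with them in 2 cells of each library, so 11.8% of male and 12.5% of female Ifng-positive members held a type 2 cytokine. In the male library that share was near the one over all members. The Ifng level of the type 2 cells differed in order between the libraries. It was 749 CPM in male type 2 cells, against 65.0 CPM in the other male members. In female type 2 cells it was 35.2 CPM, against 128 CPM in the other female members. Each of these type 2 levels came from 2 cells. Cells with a type 2 cytokine had 761 CPM (male) and 1257 CPM (female) of Il1rl1, against 152 and 282 CPM in the other members. They also had 1358 and 2684 CPM of Il2ra, the alpha chain of the interleukin 2 receptor, against 334 and 576 CPM. Members with Ifng had 21.7 and 24.5 CPM of Il1rl1, against 263 and 653 CPM in those without it. Nkg7, a granule protein of cytotoxic and type 1 cells, had 932 and 735 CPM in the members with Ifng, against 315 and 348 CPM in the others. The contrasts of Il1rl1, Il2ra and Nkg7 pointed the same way in both libraries, but those of some other genes did not. Tbx21 had 12.7 CPM in male and 70.5 CPM in female type 2 cells, against 32.5 and 41.0 CPM in the other members. Tnfsf8 had 564 and 61.2 CPM in male and female members with Ifng, against 226 and 387 CPM in those without it. Cells are not replicates, so none of these contrasts was tested. Ifng-positive male members were deeper than the others, with medians of 3392 and 1991 UMIs, and the female ones likewise with 3362 and 2901.

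The ST2 receptor marked most of the type 2 cells. Il1rl1 was seen in 11 of 15 male and 26 of 35 female members with a type 2 cytokine, or 73.3% and 74.3% of them. Over all members it was seen in 22.7% and 38.5%. Taken the other way, 31.4% of the 35 male and 50% of the 52 female Il1rl1-positive members held such a cytokine. Of all members 9.74% and 25.9% did. Cd40lg was seen in 8 of the male and 8 of the female type 2 cells, or 53.3% and 22.9%. It was seen in 5 and 2 of the Ifng-positive cells, or 29.4% and 12.5%, beside 26.0% and 16.3% of all members. Cells with Mki67 or Top2a, 41 male and 43 female, overlapped with the type 2 cells in 4 and 6 cells. These were 26.7% and 17.1% of the type 2 cells, beside 26.6% and 31.9% of all members. Female type 2 cells were deeper than the other female members, with medians of 3804 and 2844 UMIs. In the male library the medians were 2097 and 2104 UMIs. The part of depth in these shares was not tested.

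**Figure D2:**
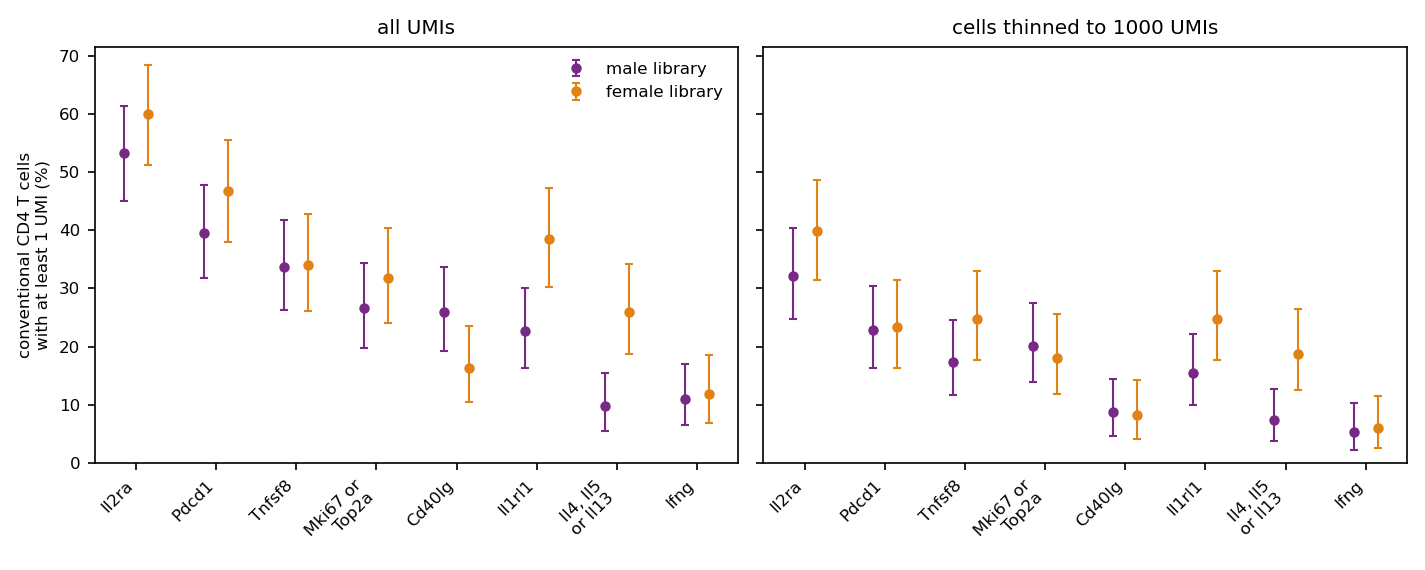
Share of conventional CD4 T cells (%, y axis) with at least 1 UMI of the gene or genes on the x axis, male and female library, all UMIs (left) and cells thinned to 1000 UMIs (right), points with 95% Clopper-Pearson intervals. Type 2 cytokine cells are 9.74% of male and 25.9% of female members, and 7.38% and 18.8% after thinning, while Ifng-positive cells are 11.04% and 11.9%.

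Set against regulatory T cells, conventional cells carried more Ccl1, Klrc1 and Cxcr6 and less Klrg1, Lrrc32 and Gzmb. Of 7994 genes, 7 were higher (0.0876%) and 10 lower (0.125%) in conventional cells at an adjusted p of at most 0.05, and 778 had an unadjusted p under 0.05. The genes that rose were Ccl1, Klrc1, Ms4a4b, Ifitm1, Cxcr6, Emb and Itgb1. Those that fell included Klrg1, Lrrc32, Izumo1r, Bmyc, Gzmb, Cd27, Irgm2, Lamc1 and Hopx. Without members and comparison cells that carried transcripts of other lineages, 149 genes were higher and 112 lower, among them all 7 and all 10. With at least 2000 UMIs per cell the counts were 0 and 1, and in a fit of these 2 classes alone 0 and 0.

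Ccl1, a chemokine whose receptor is CCR8, had 854 CPM in male and 400 CPM in female members, against 89.2 and 56.4 CPM in regulatory cells. It was seen in 39 male and 29 female members, and the fitted log2 difference was 3.06 ± 0.38 (adjusted p = 0.035). Conventional cells were above regulatory cells in both libraries, 9.57-fold for male and 7.09-fold for female cells. Cxcr6, a receptor of tissue-resident T cells, had 334 and 439 CPM in male and female members, against 130 and 179 CPM (log2 difference 1.34 ± 0.17, adjusted p = 0.035). Klrc1, which encodes the inhibitory receptor NKG2A, had 171 and 161 CPM, against 44.0 and 43.1 CPM (1.93 ± 0.21, adjusted p = 0.0292). Itgb1, the integrin beta 1 chain, had 566 and 661 CPM, against 267 and 252 CPM (1.24 ± 0.16). Emb, an adhesion protein, had 1132 and 1230 CPM, against 450 and 544 CPM, and Ms4a4b, a T cell surface protein, 501 and 449 CPM, against 166 and 133 CPM. In each of these 6 genes both libraries of conventional cells lay above both libraries of regulatory cells. With no C1q ceiling the adjusted p was 0.215 for Cxcr6, 0.221 for Emb and 0.13 for Itgb1.

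Among the genes that fell, Klrg1 had 23.7 CPM in male and 11.96 CPM in female members, against 495 and 355 CPM in regulatory cells (-4.55 ± 0.46, adjusted p = 0.0287). Lrrc32 encodes GARP, which holds latent TGF-beta on regulatory cells, and had 7.91 and 8.54 CPM against 110 and 92.9 CPM (-3.60 ± 0.36, adjusted p = 0.0287). Gzmb, a granzyme of cytotoxic cells that activated regulatory cells also express, had 122 and 378 CPM in male and female members, against 1392 and 1815 CPM. Izumo1r, folate receptor 4 of regulatory and follicular helper cells, fell by 3.29 ± 0.44 and the costimulatory receptor gene Cd27 by 2.53 ± 0.28 on the log2 scale.

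Other regulatory and costimulatory genes did not pass. Of 18 tested genes of the list of regulatory genes outside the rule, 2 fell and none rose, beside 0.125% and 0.0876% of all genes. The median of the list was -1.03 on the log2 scale beside 0.0073 over all genes. Il2ra had 462 CPM in male and 1189 CPM in female members, against 2369 and 2064 CPM in regulatory cells (-1.64 ± 0.39, adjusted p = 0.202). Ctla4, the inhibitory receptor of CD80 and CD86, had 277 and 492 CPM against 1538 and 780 CPM (-1.58 ± 0.38, adjusted p = 0.202). Of 12 tested costimulation genes, 1, Cd27, fell, beside the same 0.125% of all genes. Tnfrsf4, which encodes OX40, had 419 and 449 CPM against 1114 and 860 CPM, and Tnfrsf9, which encodes 4-1BB, had 564 and 825 CPM against 1798 and 1696 CPM (adjusted p = 0.372 and 0.0749). Tnfsf8, the ligand of CD30, had 275 and 342 CPM against 36.7 and 126 CPM (2.16 ± 0.35, adjusted p = 0.0837). Each of these 5 genes lay on 1 side of regulatory cells in both libraries without passing the test.

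**Figure D3:**
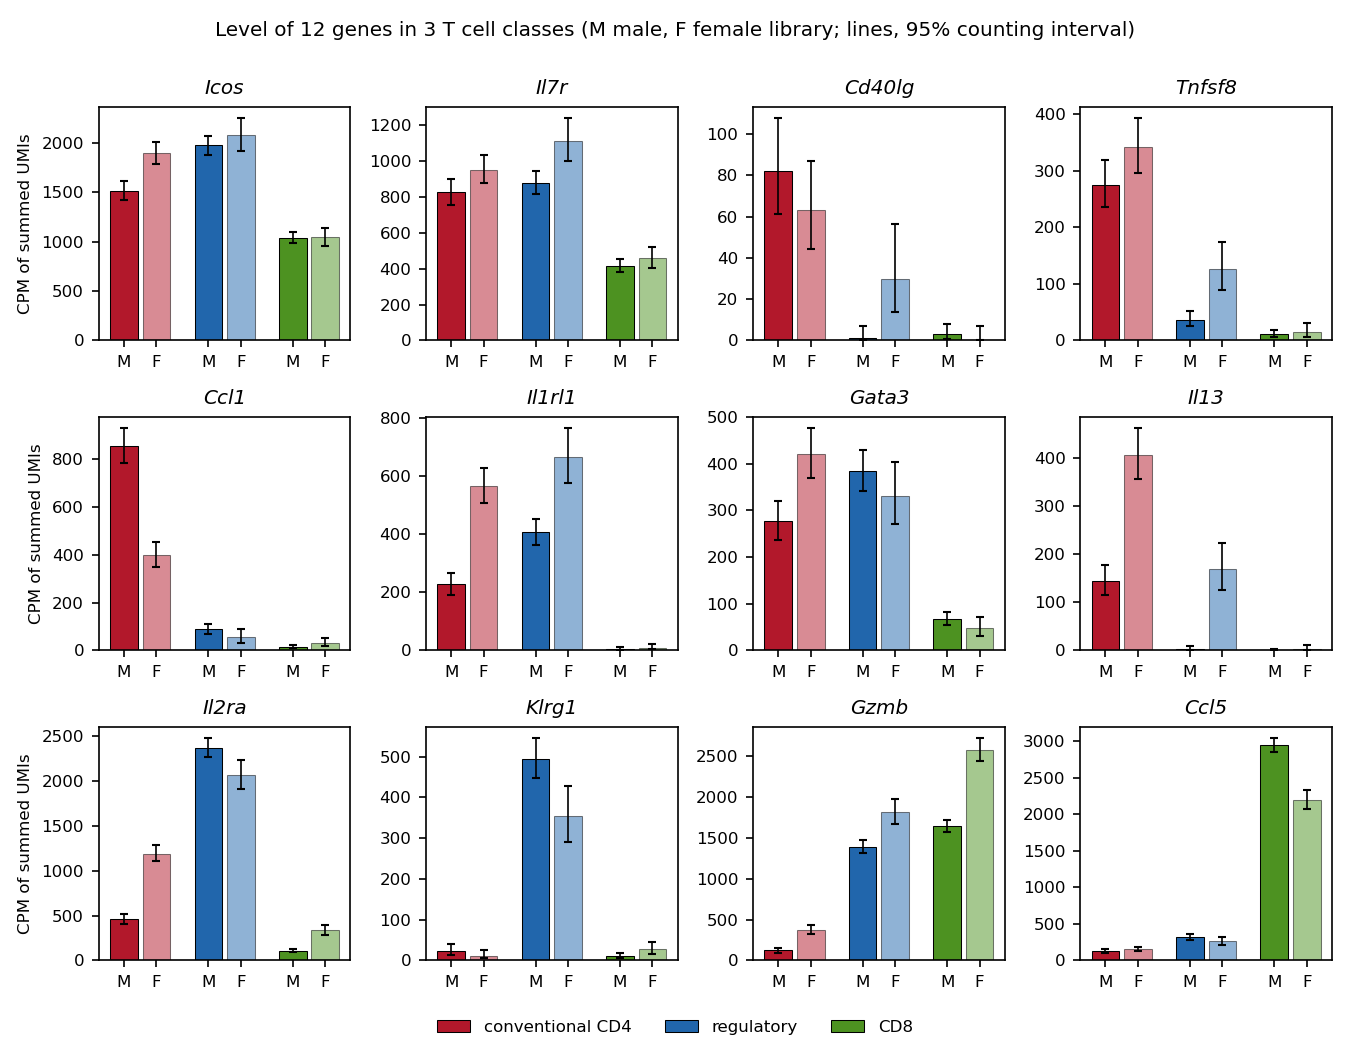
Level (CPM of summed UMIs, y axes) of 12 genes in conventional CD4, regulatory and CD8 T cells of the male (M, dark) and female (F, light) library, lines are 95% Poisson intervals. Ccl1 and Tnfsf8 are highest in conventional cells, Klrg1 in regulatory cells, Gzmb in regulatory and CD8 cells, and Ccl5 in CD8 cells at 2950 CPM in the male library.

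Set against CD8 T cells, the members were higher in most genes of the type 2 list and in Tnfsf8, Ccl1 and Penk, and lower in 9 of 15 genes of the cytotoxic list. Of 7994 genes, 53 were higher (0.663%) and 31 lower (0.388%), with 973 at an unadjusted p under 0.05. Without cells that carried transcripts of other lineages, 268 were higher and 103 lower. Beside the type 2 genes, Tnfsf8 (4.57 ± 0.41, adjusted p = 0.00334) and Ccl1 (4.87 ± 0.43, adjusted p = 0.00334) were higher. Penk, which encodes proenkephalin, had 1396 CPM in male and 1051 CPM in female members, against 4.60 and 15.6 CPM in CD8 cells (7.25 ± 0.38, adjusted p = 0.000281). It came from 23 and 22 members, and 1 cell held 45.1% of its male and 47.2% of its female UMIs. Lgals7, which encodes galectin 7, had 93.3 and 183 CPM in members, against 0.767 CPM in male CD8 cells and no UMI in female ones (7.36 ± 0.52). Igfbp7, an insulin-like growth factor binding protein, had 120 and 99.1 CPM, against 16.1 and 3.90 CPM (3.28 ± 0.42). Regulatory cells had 988 and 952 CPM of Penk, and the difference from them did not pass (adjusted p = 0.744).

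The cytotoxic list was lower, with 9 of 15 tested genes fallen and none risen beside 0.388% of all genes, at a median log2 difference of -1.91. Ccl5, a chemokine of effector CD8 T cells, had 130 CPM in male and 154 CPM in female members, against 2950 and 2195 CPM in CD8 cells (-4.13 ± 0.20, adjusted p = 0.000281). Gzmk had 0 and 5.13 CPM against 96.7 and 273 CPM, and Gzma 9.49 and 73.5 CPM against 660 and 2230 CPM. Prf1, the pore-forming protein of cytotoxic granules, had 11.1 CPM in male members and no UMI in female members, against 154 and 74.1 CPM (-4.35 ± 0.53, adjusted p = 0.0137). Xcl1, the chemokine that draws cross-presenting dendritic cells, had 11.1 and 5.13 CPM, against 197 and 312 CPM in CD8 cells (-4.86 ± 0.45). Members were thus low in most of this set, though Nkg7 was still seen in 46.1% of male and 49.6% of female members, against 5.97% and 12.6% of phagocytes. Fasl, the death ligand, had 79.1 and 88.9 CPM against 107 and 117 CPM in CD8 cells and did not pass (adjusted p = 0.615).

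Receptors that sustain T cells differed as well. Il7r, the interleukin 7 receptor of memory T cells, had 827 CPM in male and 953 CPM in female members, against 418 and 460 CPM in CD8 cells (1.05 ± 0.14, adjusted p = 0.0174). Il2rb, the beta chain shared by the interleukin 2 and 15 receptors, had 753 and 713 CPM against 1497 and 1315 CPM (-0.90 ± 0.14, adjusted p = 0.0353). Tnfrsf4 and Tnfrsf18, which encodes GITR, were the 2 of 12 tested costimulation genes that rose, by 2.82 ± 0.42 and 1.26 ± 0.19. Over all genes 0.663% rose. With at least 2000 UMIs per cell Il2rb, Tnfrsf4 and Tnfrsf18 did not pass (adjusted p = 0.126 for both Tnfrsf4 and Tnfrsf18), nor did Il7r with no C1q ceiling (adjusted p = 0.496). None of the 13 tested genes of T cell receptor signalling was called against either class. Over all genes 0.0876% rose and 0.125% fell against regulatory cells, and 0.663% and 0.388% against CD8 cells. With so few genes called, this says little about that list. Of 12 tested inhibitory receptor genes, 1 fell against CD8 cells, Cd160, beside 0.388% of all genes. Pdcd1, which encodes PD-1, had 236 and 299 CPM in male and female members, 262 and 216 CPM in regulatory cells and 412 and 187 CPM in CD8 cells, with no order common to both libraries.

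**Figure D4:**
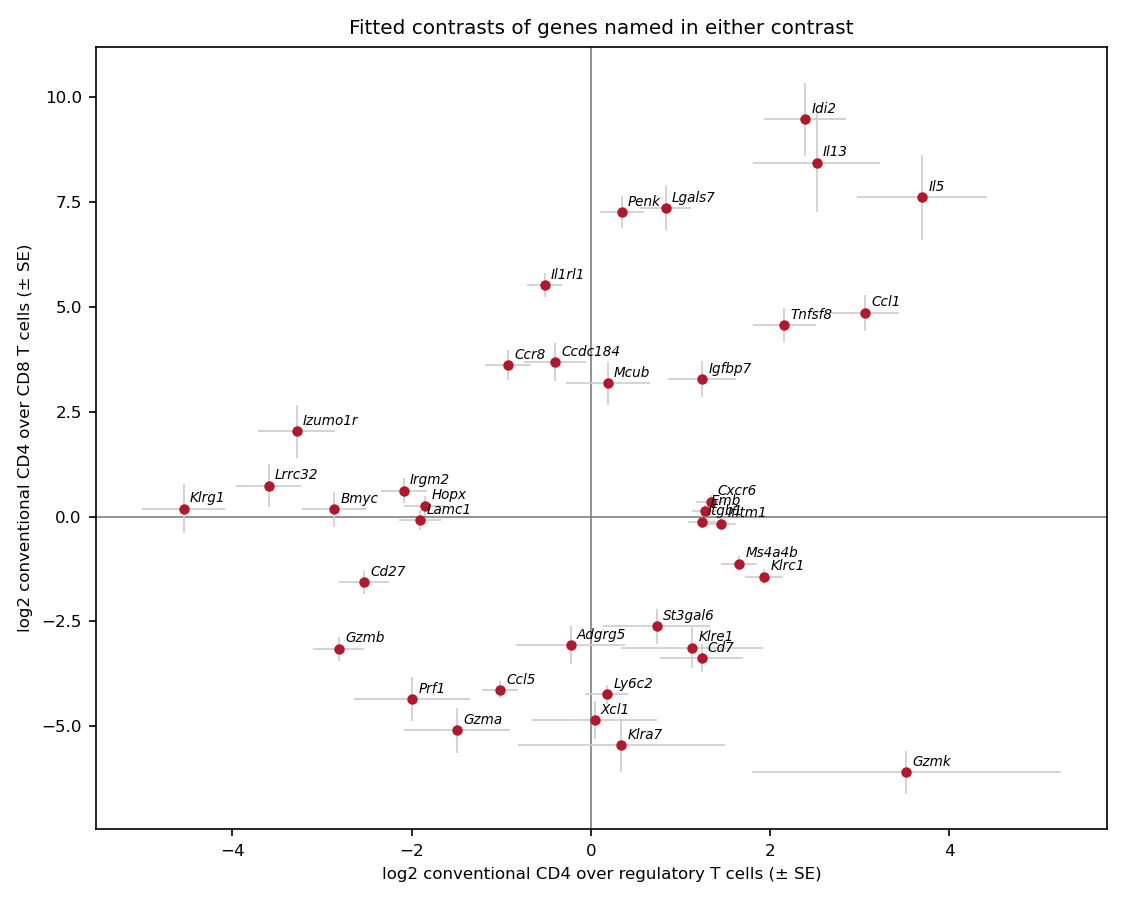
Fitted log2 difference of conventional CD4 from regulatory (x axis) and from CD8 T cells (y axis) with standard errors, for genes named in either contrast. Ccl1 lies high on both axes at 3.06 and 4.87, Gzmb low on both at -2.81 and -3.15, and Il1rl1 is set apart from CD8 cells at 5.53 but not from regulatory cells at -0.52.

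Between the sexes, most genes of the members had like levels. Of 4110 genes with at least 50 UMIs in at least 10 members, 92.0% lay within 2-fold, 178 (4.33%) were at least 2-fold higher in male and 152 (3.7%) at least 2-fold higher in female members. The counting interval held a ratio of 1 for 3065 genes, and the median log2 ratio was 0.015. Of the male-higher genes, 86 had at least 25% of their UMIs in 1 cell, as had 20 of the female-higher ones. Without cells that carried transcripts of other lineages, 40 and 72 of 2704 genes were at least 2-fold higher, and with cells thinned to 1000 UMIs 15 and 30 of 962. Members of the gene lists needed only 20 UMIs, with no limit on cells. The shares of eligible genes set beside the lists below thus come from genes under a stricter limit. Of 211 list genes, 23 were at least 2-fold higher in male and 26 in female members.

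The type 2 list leaned to the female library. Of its 9 genes with at least 20 UMIs, none was at least 2-fold higher in male and 5 were in female members, beside 4.33% and 3.7% of eligible genes, at a median log2 male over female of -1.11. Those 5 were Il4, Il13, Il1rl1, Il5 and Ccr4. The log2 ratio was -1.50 (-1.86 to -1.14) for Il13, -1.31 (-1.61 to -1.03) for Il1rl1 and -0.60 (-0.89 to -0.32) for Gata3. Without cells that carried transcripts of other lineages it was -1.47 for Il13 and -1.08 for Il1rl1, the list had 3 such genes, and its median was -0.72. After thinning to 1000 UMIs, which left out 5 male and 2 female members below that depth, type 2 cytokine cells were 7.38% (3.74 to 12.8) of male and 18.8% (12.5 to 26.5) of female members, so that share had the same order at matched depth. Of the 7 list genes left after thinning, 1 was at least 2-fold higher in female members, the median was -0.26, and Gata3 stood at 0.015. In the few members without any C1q UMI, on 5 genes, it was 0.17.

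Il2ra was also higher in female members. It had 462 CPM (410 to 518) in male and 1189 CPM (1102 to 1281) in female members, a log2 ratio of -1.37 (-1.57 to -1.17), and was seen in 53.2% and 60.0% of them. Ctla4 had a log2 ratio of -0.83 (-1.11 to -0.55), and Tnfrsf9 one of -0.55 (-0.75 to -0.35), while Icos stood at -0.32 and Tnfrsf4 at -0.10. After thinning, Il2ra stood at -0.84, Ctla4 at -0.40 and Tnfrsf9 at -0.14. Of 10 genes of the interleukin 2 pathway, none was at least 2-fold higher in male members and 3 were in female members, namely Il2ra, Stat5a and Jak3, beside 4.33% and 3.7% of eligible genes. After thinning, none of 8 reached 2-fold and the median was 0.05. None of 12 costimulation genes reached 2-fold in either direction. Il2 itself had 0 UMIs in male and 1 in female members. Ccl1 ran the other way, with a log2 ratio of 1.09 (0.87 to 1.32), and Cd40lg stood at 0.38 (-0.26 to 1.03), an interval that holds 0.

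Of 15 measured interferon-stimulated genes, none was at least 2-fold higher in male and 5 were in female members (4.33% and 3.7% over eligible genes), at a median of -0.57. Irf7, a factor that amplifies interferon responses, had 30.0 CPM in male and 111 CPM in female members. Ifit1 had 20.6 and 113 CPM, but 66.7% of its female UMIs lay in 1 cell. Without cells that carried transcripts of other lineages none of 13 genes reached 2-fold, and the median was -0.0095. After thinning, the median of 10 genes was 0.10, so the lean of the list was not seen under either setting.

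Cell cycle genes leaned to the male library in level but not in the share of cells. Of 17 measured proliferation genes, 8 were at least 2-fold higher in male members and none in female members, beside 4.33% and 3.7% of eligible genes, at a median log2 ratio of 0.97. Top2a, which untangles chromosomes before division, had 683 CPM in male and 314 CPM in female members. Mki67 had 360 and 251 CPM, and was seen in 28 members of each library, 18.2% and 20.7%. Cells with Mki67 or Top2a were 26.6% (19.8 to 34.3) of male and 31.9% (24.1 to 40.4) of female members, and 20.1% and 18.0% after thinning. Without cells that carried transcripts of other lineages, 1 of the 17 genes reached 2-fold and the median was 0.29. In the male library 18.6% of the Mki67 and Top2a UMIs lay in 1 cell. Mki67 was also seen in 36.0% and 19.8% of the deeper male and female phagocytes.

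**Figure D5:**
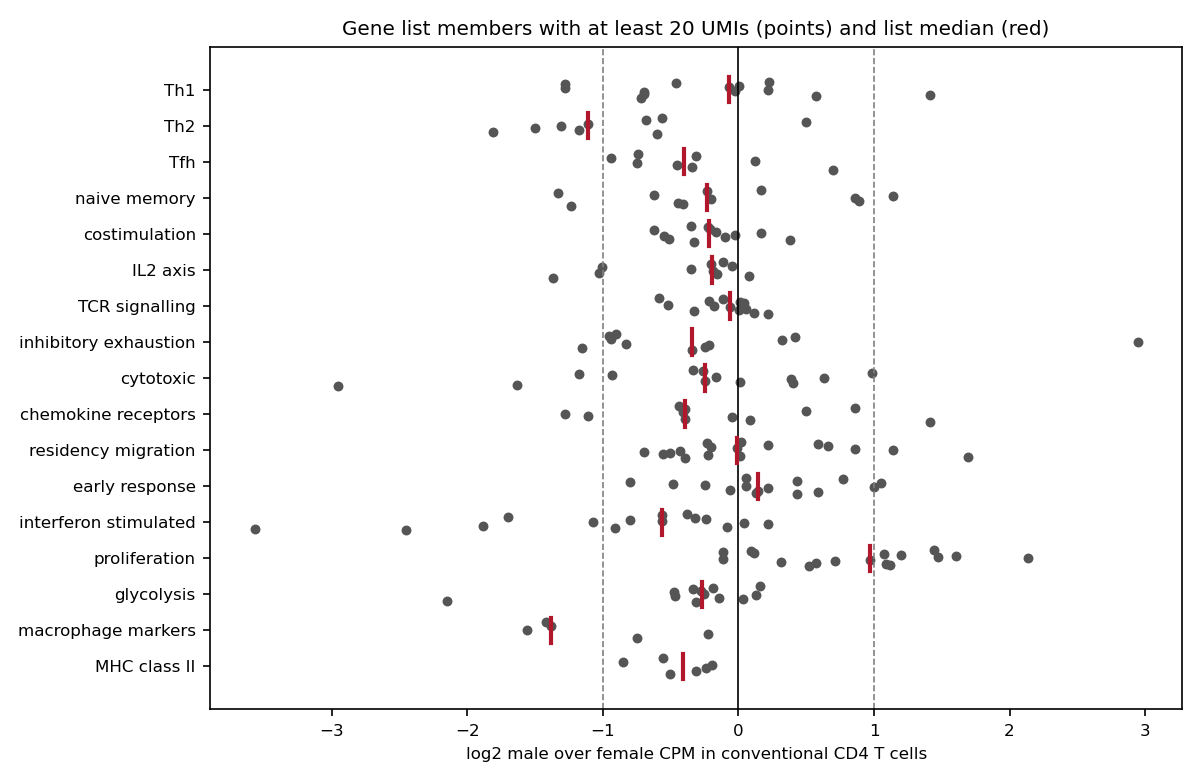
Log2 male over female CPM in conventional CD4 T cells (x axis) for members with at least 20 UMIs of 17 gene lists (rows), red bars are list medians and dashed lines mark 2-fold. The Th2 median is -1.11 and the macrophage marker median -1.38, the proliferation median is 0.97, and costimulation and T cell receptor signalling stay within 2-fold.

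Most of the genes that led the female library are abundant in phagocytes. Among the 12 with the smallest ratios, after leaving out genes with at least 25% of UMIs in 1 cell, 11 are reported here, namely Arg1, Ccl24, Hmox1, Retnla, Il10, Pecam1, Fabp5, Rgl1, F10, Hlf and Slc2a3. Of these 11, 8 were higher in the female phagocytes than in the female members. Arg1, the arginine-degrading enzyme of alternatively activated macrophages, had 108 CPM in male and 1118 CPM in female members, against 647 and 3503 CPM in male and female phagocytes. Ccl24, an eosinophil chemokine, had 163 and 1442 CPM in members against 1612 and 3428 CPM in phagocytes. Both were also higher in the female than in the male regulatory and CD8 cells, with 161 and 647 CPM of Arg1 in regulatory and 100 and 858 CPM in CD8 cells. Of the 9 genes with a value once cells that carried transcripts of other lineages were left out, 8 remained at least 2-fold higher in female members, Arg1 at -1.75 and Ccl24 at -2.45 on the log2 scale. That setting had no limit on macrophage markers, so the part of phagocyte transcripts in these levels was not tested.

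The 3 others were low in phagocytes of the female library. Il10, the gene of an anti-inflammatory cytokine, had 11.1 CPM in male and 75.2 CPM in female members, against 95.7 CPM in male and 18.2 CPM in female phagocytes. Hlf, a transcription factor, had 23.7 and 109 CPM in members, against 0.242 and 0.327 CPM in phagocytes. Slc2a3, a glucose transporter, had 15.8 and 70.1 CPM, against 3.77 and 2.83 CPM. For these 3 genes the female members were the higher ones also without cells that carried transcripts of other lineages, with log2 ratios of -2.46, -1.64 and -1.73.

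The genes that led the male library were partly of cell division. The 12 with the largest ratios were Actn1, Ccnb1, Ptgfrn, Tmem176b, Birc5, Hmgn1, Smim10l1, Rhoc, Cd81, Ube2c, Kif23 and Strbp. Ccnb1, the mitotic cyclin B1, had 83.8 CPM in male and 13.7 CPM in female members, and Birc5, the survivin gene, had 414 and 94.0 CPM. Actn1, an actin crosslinker, had 299 and 46.1 CPM. Without cells that carried transcripts of other lineages, 7 of the 12 remained at least 2-fold higher, Ccnb1 at 2.24 among them, while Actn1 stood at 0.45, Strbp at 0.038 and Hmgn1 at -0.20 on the log2 scale. Tmem176b, a membrane protein of myeloid and type 3 lymphoid cells, had 288 and 61.5 CPM in members and 640 and 204 CPM in phagocytes, and its ratio was -0.057 after thinning.

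A few list genes differed outside these groups. Tox, which drives the exhausted state of T cells, was read as 25 UMIs from 16 male members and as 3 UMIs from 2 female members, a log2 ratio of 2.95 (1.23 to 5.32). The CD8 cells showed the same order, at 69.8 CPM for male and 15.6 CPM for female cells, and regulatory cells did too, at 119 and 36.5 CPM. Esr1, the estrogen receptor alpha, had 1 and 6 UMIs. Gzmb had 122 CPM in male and 378 CPM in female members, from 16 and 29 cells. Gzma had 9.49 and 73.5 CPM, from 4 and 18 cells.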

How the data were processed

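Cells of MB49 tumours from male and female mice were measured as UMI counts per gene and cell in 4 libraries, male and female CD45-positive and CD45-negative. The count matrices were used as deposited; per the submitters' processing notes, UMI-tools, Seurat and CASAVA 1.8 were used with the mm10 build. The sources used here name no aligner. The members, gene lists and tests were chosen with earlier results of these data known.

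Cells were kept from 500 UMIs and 250 genes upwards when mitochondrial UMIs were no more than 25%. No doublet caller was run; cells with at least 1% MHC class II UMIs or at least 5 fibroblast and tumour UMIs were left out in 1 alternative. Regulatory cells met the rule of the members but for at least 1 UMI of Foxp3 or Ikzf2, and CD8 T cells had Cd8 and Cd3 but no Cd4. Counts were summed per library and class into 6 sums and tested with edgeR 4.0.16 (R 4.3.3; quasi-likelihood, library as block, Benjamini-Hochberg) over 7994 genes after the genes of the rule were set aside, with 2 residual degrees of freedom. The 2 libraries are the only replicates of this test, and nothing says how many animals they hold. Its p-values thus measure class differences against how far these varied between the 2 libraries, a spread that may be technical. DESeq2 1.42.0 was an alternative. No test was made between the sexes, each being 1 library. Levels have exact Poisson, ratios exact conditional and shares exact Clopper-Pearson intervals at 95%, for counting error only, computed with scipy 1.17.1 on Python 3.11.15.

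Genes compared between the sexes had at least 50 UMIs in at least 10 members, and list members at least 20 UMIs. Named genes were up to 12 per direction: in class contrasts those called, at least 2-fold apart the same way in both libraries and with at least 100 UMIs, and between the sexes those with the largest ratios and under 25% of their UMIs in 1 cell; genes of the lists were named besides. Single values of 5 genes are not reported here. Counts of 7646 genes were also simulated for the 6 sums, with known changes set in the regulatory sums. On these the edgeR test called 73.5% of 4-fold and 7.22% of 2-fold changed genes and 0.0268% of unchanged ones. All genes were drawn with 1 common dispersion, so these rates may not hold for genes carried by few cells.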

Additional observations from a re-analysis of the deposited data

Results flagged for a closer look

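For 14 of the named and listed genes, the difference between classes ran 1 way in the male library and the other way in the female one. Each library is 1 sample, and the difference between libraries was not tested. As log2 in the male library minus log2 in the female library, conventional over regulatory cells, the values were 10.85 for Col1a1 and 8.31 for Col3a1 (fibrillar collagens), 10.59 for Krt18 (an epithelial keratin), 4.74 for Actn1, 4.67 for Ccl22, 4.59 for Ptgfrn, 3.65 for Rhoc, 3.40 for Tmem176b and 2.55 for Hmgn1. The immediate early genes Egr1, Jun and Fos stood at 3.43, 3.34 and 2.33. Fos had 496 CPM in male and 519 CPM in female conventional cells, against 209 and 1098 CPM in regulatory cells. In conventional over CD8 cells, Ifit1 stood at -2.71 and Klrg1 at 2.44. Of the Col1a1 UMIs of male conventional cells 42.4% lay in 1 cell, and of the Ifit1 UMIs of female ones 66.7%. At least 5 fibroblast and tumour UMIs were held by 4 male conventional cells and by 1 female regulatory cell. The values of Col1a1, Col3a1 and Krt18 thus rested on few cells.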

How the results depend on the processing

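Counts of genes called in the class contrasts moved with the settings. Against regulatory cells, 7 higher and 10 lower became 0 and 1 with at least 2000 UMIs per cell, 37 and 129 with no C1q ceiling, 125 and 103 with at least 2 Cd3 UMIs, 88 and 68 with at least 2 Cd4 UMIs, 161 and 137 without the 5% deepest cells, and 149 and 112 without cells that carried other-lineage genes. They were 125 and 93 with regulatory cells by Foxp3 alone, 22 and 25 with DESeq2, 150 and 123 with no filter on low counts, and 0 and 0 with only the 2 classes compared. Against CD8 cells, 53 higher and 31 lower became, in that order, 31 and 19 (2000 UMIs), 208 and 192 (no ceiling), 309 and 129 (Cd3), 198 and 88 (Cd4), 268 and 122 (deepest cells), 268 and 103 (other lineages), 320 and 142 (no filter) and 294 and 124 (2 classes), and 21 and 10 with members limited to cells without C1q. The 7 genes higher than in regulatory cells were all called again without other-lineage cells, and 0 of them at 2000 UMIs. With all classes limited to cells without C1q, 9 genes were higher and 8 lower than in regulatory cells. Only 4 of the 7 and 2 of the 10 were among them. With no C1q ceiling, 3 of the 7 and all 10 were called again. Of the genes compared between the sexes, 178 were 2-fold higher in male and 152 in female members. Of 4110 eligible genes these were 4.33% and 3.7%. The male-higher and female-higher counts became 25 and 13 without C1q (7.27% and 3.78% of 344 genes left), 57 and 96 without the 5% deepest cells (of 3193), 40 and 72 without other-lineage cells (of 2704), 15 and 30 after thinning (of 962), and 62 and 69 for genes with at least 100 UMIs in 20 cells (of 2240), and the male-higher count 68 with at least 2 Cd3 and 62 with at least 2 Cd4 UMIs. List genes, 23 male-higher and 26 female-higher of 211, became 10 and 16 of 98 without C1q and 6 and 11 of 147 after thinning, the male-higher ones 13 with at least 2 Cd4 UMIs and 13 without other-lineage cells, and the female-higher ones 17 with no ceiling. The log2 male:female ratio of the share of leukocytes was -0.52 at 2000 UMIs and 2.28 without C1q, against -0.037, and that of the share of CD4 T cells -0.96 at 2000 UMIs, against -0.60. Among male over female values of at least 2-fold as reported, the sign turned in 16 instances, and turns of smaller values were not counted: with no C1q ceiling Adgre1 stood at 0.76, Gbp2 at 0.15, Il10 at 0.84 and the macrophage list at 0.64. In members without C1q, Ccl1 stood at -1.79, Gzmb at 2.17, Il5 at 0.52 and the Th2 list at 0.17. After thinning, Tmem176b stood at -0.057, and without other-lineage cells Gbp2 at 0.094, Hmgn1 at -0.20 and Jun at -0.61. Jun also stood at -0.11 with at least 2 Cd3 UMIs, -0.063 with at least 2 Cd4 UMIs and -0.35 without the 5% deepest cells, and Klf2 at -0.062 at 2000 UMIs. Of the other single values 3140 kept their direction and call or moved by less than their interval, 647 moved more and 70 lost a call; the cause of none was tested. The settings on other-lineage cells and on Foxp3 alone were chosen after seeing the data. The labels carry no replicate numbers, and the class contrasts compared classes within libraries, with the library as block. With 1 library left out no residual degrees of freedom remain, so only values were taken. Depth limits rare transcripts: 3 UMIs are 4.74 CPM in male and 5.13 CPM in female members.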
